A study of Mus musculus with 9 samples.

Results

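The genes described here encode the cytosolic machinery that senses, carries and releases iron inside cells. The set has 9 members of the 23420 genes in the count tables, chosen by gene symbol: Aco1 (iron regulatory protein IRP1), Ireb2 (IRP2), Fbxl5, the iron chaperones Pcbp1 and Pcbp2, the ferritinophagy receptor Ncoa4, and the ferrireductases Steap2, Steap3 and Cybrd1. Their messenger RNA was measured by RNA sequencing in whole liver of 9 wild-type male C57/BL6 mice, 3 per diet. From 5 weeks of age the mice ate AIN-93G, a purified soy-free feed, with 2.5 mg iron per kg (low iron), 37.5 mg per kg (sufficient iron) or 1000 mg per kg (high iron). The diets lasted 50 days and livers were taken at 12 weeks of age. Hemojuvelin knockout mice, which the treatment protocol also names, are not analysed here.

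When a cell is short of iron, IRP1 and IRP2 bind a hairpin in certain messenger RNAs, the iron-responsive element (IRE). Bound near the start of a message, as in ferritin, they block its translation, and bound in the tail of transferrin receptor message they protect it from decay. With enough iron, IRP1 takes up an iron-sulfur cluster and becomes cytosolic aconitase, while FBXL5, an iron-binding subunit of a ubiquitin ligase, marks IRP2 for breakdown. PCBP1 and PCBP2 hand iron to ferritin, NCOA4 carries ferritin to the lysosome so that its iron can be used again, and ferrireductases of the STEAP and cytochrome b561 families reduce iron so that it can cross membranes. Much of this control acts on proteins and on translation, which RNA counts do not measure.

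Because the IRE is the site that both IRPs read, its sequence is shown for the transcripts whose counts are given with those of the IRPs. GENCODE vM21 transcripts (mouse build GRCm38) were searched on the sense strand for C, a 5-base stem, the loop CAGTGN and a complementary 5-base stem, with G-T pairs allowed. Each window of 29 bases is written 5′ to 3′ as DNA letters, with the loop in capitals.
Fth1 (ferritin heavy chain, 5′ UTR, chr19:9982732-9982760, plus strand): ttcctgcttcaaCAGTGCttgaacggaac
Ftl1 (ferritin light chain, 5′ UTR, chr7:45459779-45459807, minus strand): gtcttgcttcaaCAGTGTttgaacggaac
Slc40a1 (ferroportin, 5′ UTR, chr1:45925465-45925493, minus strand): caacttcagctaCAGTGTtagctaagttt
Alas2 (erythroid 5-aminolevulinate synthase, 5′ UTR, chrX:150547458-150552149, plus strand, across a splice junction): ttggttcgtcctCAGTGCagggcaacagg
Tfrc (transferrin receptor, 3′ UTR, the first of 4 matches, chr16:32631219-32631247, plus strand): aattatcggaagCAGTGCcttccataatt
Slc11a2 (iron importer DMT1, 3′ UTR, 1 unpaired stem position, chr15:100395153-100395181, minus strand): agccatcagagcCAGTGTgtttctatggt

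With all 5 stem positions paired, the pattern was found in 6 of the 9 listed IRE transcripts and in 0 of the 9 genes of the set. Among 21840 protein-coding genes searched, 1.32% held it. With 1 unpaired position allowed it was found in 8 of the 9 listed transcripts and in 1 gene of the set, Pcbp2, where it lies in coding sequence across a splice junction, against 10.5% of all genes. The listed transcript without a match at either setting was Epas1. The pattern searched is that of the IRE itself, so its share among listed IRE messages is not a test. A match to these letters is a description and not a measured IRP site.

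Each library held between 22 M and 33.8 M gene reads. The 8 hepatocyte markers summed to 48185 to 73455 CPM (gene counts scaled to library size) in the 9 libraries, and the 8 lymphocyte markers to at most 7.15 CPM. The ribosomal RNA precursor Rn45s took 43.7% of gene reads in low-iron replicate 1 and 40.5% in high-iron replicate 12, and the remaining 7 libraries had 12.5% to 23.8%. The labels describe separate mice and give no batch. In whole liver, fewer cells of a type and less RNA per cell cannot be told apart.

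Of the 9 genes, 8 were detected in all libraries at levels that could be tested, and Cybrd1 was not tested. Levels of different genes are compared as CPM per kilobase of exon, with exon lengths from GENCODE vM21. Pcbp1 stood highest, at 57.4 CPM per kilobase (range over the 9 libraries 53.4 to 64.9). Aco1 followed at 44.2 (38.4 to 55.7), Ncoa4 at 36.5 (24.1 to 44.7), Pcbp2 at 28.5 (25.1 to 32.3) and Ireb2 at 22.5 (17.2 to 28.6), each range overlapping the next. Fbxl5 at 5.38 (4.66 to 5.98), Steap3 at 2.66 (2.03 to 3.31) and Steap2 at 0.712 (0.489 to 1.19) each lay below the one before without overlap. Liver RNA of these mice therefore held the chaperones, both IRPs and the ferritin receptor at higher levels per length than Fbxl5 and the STEAP reductases.

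Cybrd1 (duodenal cytochrome b), the reductase of the intestinal brush border, had 1 to 11 reads per library and 0.0705 to 0.402 CPM. It had 1, 11 and 2 reads in low-iron replicates 1, 5 and 9. In sufficient-iron replicates 2, 6 and 10 it had 2, 7 and 5 reads, and in high-iron replicates 4, 8 and 12 it had 3, 8 and 5. Several of these counts are at or under 3 reads, and no difference between diets was detectable at this depth.

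The 3 diets were compared pairwise, jointly and along log10 of dietary iron, to ask whether messages of the iron-handling machinery differ with iron supply. None of the 8 tested genes passed in any of the 5 tests (0 of 8 each; quasi-likelihood test of edgeR, threshold 0.05 for p adjusted by Benjamini-Hochberg across 13020 genes). Over all tested genes 0.215% passed between high and sufficient iron, 0% between low and sufficient iron, 0.507% between high and low iron, 0.215% in the joint test and 0.307% along the trend. DESeq2 and limma-voom also called 0 of the genes in each test, although DESeq2 gave only 5 of the 8 an adjusted p between low and sufficient iron. The 3 genes with the lowest joint p were Ncoa4 (adjusted p = 0.478), Steap3 (0.483) and Aco1 (0.503). At an unadjusted p under 0.05 there were 0 of 8 between high and sufficient iron, where 9.28% of all genes passed. There was 1 of 8 between low and sufficient iron (Ncoa4; 11.2% of all genes), and 2 of 8 between high and low iron (Aco1 and Steap3; 9.65%). The joint test had 0 of 8 (10.7%) and the trend 2 of 8, again Aco1 and Steap3 (8.73%).

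The size of difference that the data allow is bounded. Of 24 pairwise 95% intervals of the log2 fold change, 23 lay within a 2-fold difference in either direction. The exception was Steap2 between low and sufficient iron, whose interval ran from -1.07 to 0.06. Intervals of that width were common, since 80% of all tested genes met the bound between high and sufficient iron, 77.3% between low and sufficient iron and 79.5% between high and low iron. The median log2 difference of the 8 genes was -0.09 for high against sufficient iron, 0.03 for low against sufficient iron and 0.07 for high against low iron. The same medians over all tested genes were -0.01, -0.004 and -0.01.

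**Figure D1:**
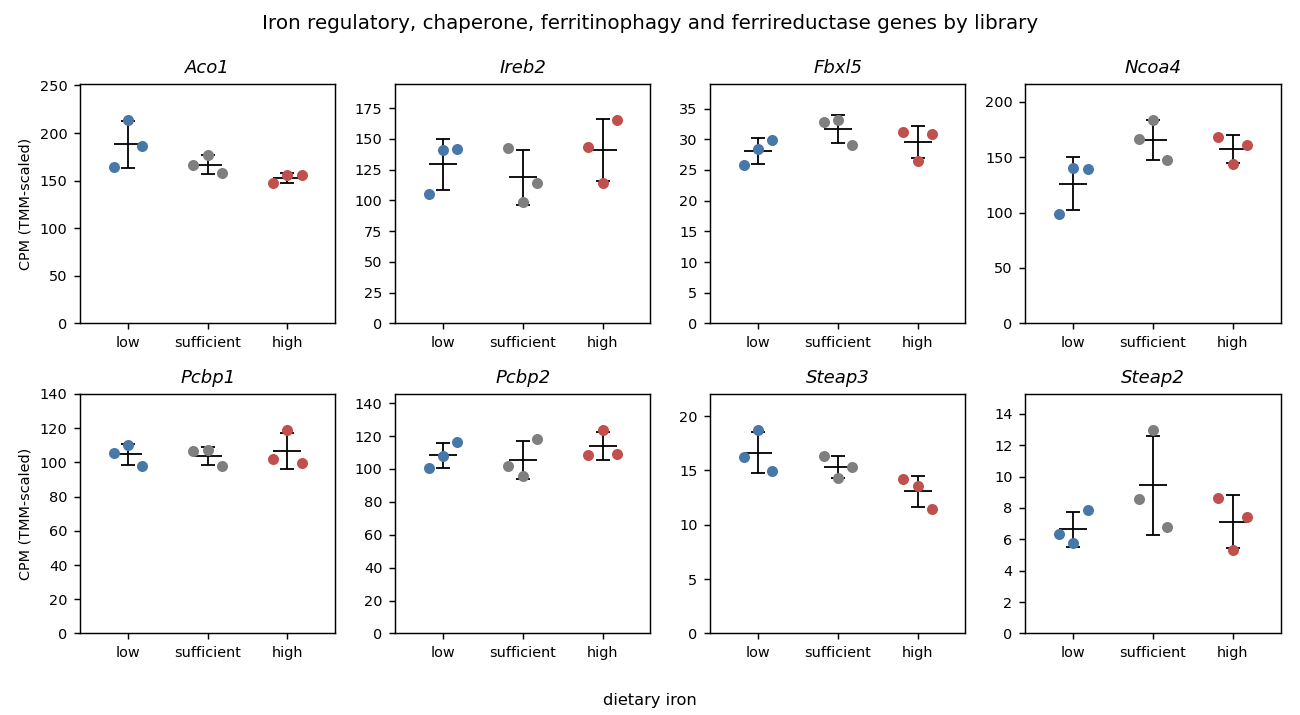
Level of 8 genes in each liver library by diet, in CPM on TMM-scaled library sizes, with axes starting at 0. Points are single mice, ordered by title number within a diet, and bars are the mean and SD of 3 mice. Aco1 and Steap3 have their lowest group at high iron and Ncoa4 has its lowest at low iron, with Pcbp1 between 97.7 and 119 CPM in all mice.

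Aco1 encodes IRP1, the bifunctional protein that is an IRE-binding factor without its cluster and an aconitase with it. It stood at 164, 213 and 186 CPM in low-iron replicates 1, 5 and 9. In sufficient-iron replicates 2, 6 and 10 it stood at 166, 177 and 157 CPM, and in high-iron replicates 4, 8 and 12 at 147, 156 and 156 CPM. The high-iron mice lay below every mouse of the other diets, and the low-iron and sufficient-iron mice overlapped. The nearest pair was 156.4 CPM in high-iron replicate 12 and 157.5 CPM in sufficient-iron replicate 10. Diet means were 188 ± 24.8, 167 ± 9.63 and 153 ± 5.19 CPM (SD, n = 3 each). The log2 difference was -0.30 ± 0.12 (SE) between high and low iron, with a 95% interval of -0.56 to -0.04 (edgeR unadjusted p = 0.0297, adjusted p = 0.43). Between high and sufficient iron the difference was -0.13 ± 0.12 (edgeR adjusted p = 0.731). Along the trend the slope of Aco1 was -0.11 ± 0.04 log2 units per 10-fold more dietary iron (edgeR adjusted p = 0.461). The value between high and low iron came to -0.20 without low-iron replicate 5. It was -0.38 without low-iron replicate 1, one of the 2 libraries richest in Rn45s. Sums of the 8 hepatocyte markers were also lower at high than at low iron, without overlap. The part of these markers and of Rn45s in the Aco1 values was not tested.

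Ireb2 encodes IRP2, which has no aconitase activity and whose abundance is set mainly by breakdown of the protein. It stood at 105, 141 and 142 CPM in low-iron replicates 1, 5 and 9. Values were 143, 99 and 114 CPM in sufficient-iron replicates 2, 6 and 10, and 143, 114 and 165 CPM in high-iron replicates 4, 8 and 12. All 3 diets overlapped, with means of 129, 119 and 141 CPM at low, sufficient and high iron. The spread within a diet (SD 20.7 to 25.5 CPM) was similar to the distance between the highest and the lowest of these means. The log2 difference was 0.25 ± 0.18 between high and sufficient iron (edgeR adjusted p = 0.673) and 0.12 ± 0.18 between high and low iron (adjusted p = 0.877). Without sufficient-iron replicate 2, without sufficient-iron replicate 6 and without high-iron replicates 8 or 12 the first of these was 0.40, 0.13, 0.38 and 0.12. The value between high and low iron was 0.00463 without low-iron replicate 1, 0.00143 without high-iron replicate 12, 0.20 without low-iron replicate 9, 0.19 without low-iron replicate 5 and 0.26 without high-iron replicate 8. The highest Ireb2 level was in high-iron replicate 12, one of the 2 libraries richest in Rn45s, and their part in this value was not tested.

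Fbxl5 encodes the iron- and oxygen-binding subunit that directs IRP2 to the proteasome. Its levels were 25.7, 28.4 and 29.9 CPM in low-iron replicates 1, 5 and 9, and 32.8, 33.1 and 29.1 CPM in sufficient-iron replicates 2, 6 and 10. High-iron replicates 4, 8 and 12 held 31.2, 26.5 and 30.9 CPM. The groups overlapped in every comparison, and the largest of the log2 differences was -0.17 ± 0.11, between low and sufficient iron (edgeR adjusted p = 0.522). With 1 library left out at a time this value ran from -0.24 to -0.13, and over all alternatives it ran from -0.24 to -0.08. The lowest Fbxl5 level was in low-iron replicate 1, one of the 2 libraries richest in Rn45s, whose part was not tested. The highest library exceeded the lowest by 1.29-fold. Its RNA was measured from 330 to 1438 reads per library.

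Pcbp1 and Pcbp2, KH-domain RNA-binding proteins that also bind ferrous iron and load ferritin, had the highest joint p of the 8 genes (edgeR adjusted p = 0.967 and 0.82). Pcbp1 means were 105 ± 6.17, 104 ± 5.33 and 107 ± 10.5 CPM at low, sufficient and high iron, with 97.7 to 119 CPM over all mice. Pcbp2 means were 108 ± 7.78, 105 ± 11.6 and 114 ± 8.36 CPM, with 95.9 to 123 CPM over all mice. For Pcbp1 the 3 pairwise log2 differences were 0.04, 0.01 and 0.03 (SE 0.11 each, edgeR adjusted p = 0.916, 0.974 and 0.958), and the intervals ran from -0.23 at the lowest to 0.28 at the highest. For Pcbp2 they were 0.11, 0.04 and 0.07 (SE 0.12 each, adjusted p = 0.755, 0.895 and 0.888). With 1 library left out at a time, Pcbp2 ran from 0.05 (without high-iron replicate 8 or sufficient-iron replicate 6) to 0.20 (without sufficient-iron replicate 10) between high and sufficient iron. Between high and low iron it ran from 0.02 (without high-iron replicate 8) to 0.13 (without low-iron replicate 9), with 0.03 without low-iron replicate 1. Highest over lowest library was 1.22-fold for Pcbp1 and 1.29-fold for Pcbp2. The spread of Pcbp1 within a diet was 0.10 on the log2 scale, and 9.34% of all tested genes had a lower one. Pcbp1 is an intronless gene. Reads that align to several places are not in these counts, so any that it shares with other places in the genome would be missing from its level.

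Ncoa4, the receptor that binds ferritin heavy chain and delivers ferritin to autophagosomes, had its lowest levels on the low-iron diet. It stood at 98.9, 141 and 139 CPM in low-iron replicates 1, 5 and 9. Sufficient-iron replicates 2, 6 and 10 held 166, 183 and 147 CPM, and high-iron replicates 4, 8 and 12 held 168, 144 and 161 CPM. All low-iron mice lay below all mice of the other diets, while the sufficient-iron and high-iron mice overlapped. Means were 126 ± 23.6, 166 ± 18 and 157 ± 12.3 CPM. The log2 difference was -0.39 ± 0.15 between low and sufficient iron (interval -0.73 to -0.06, edgeR unadjusted p = 0.0265, adjusted p = 0.446) and 0.32 ± 0.15 between high and low iron (adjusted p = 0.552). Without low-iron replicate 1, which has the lowest level, these values were -0.26 and 0.18. In that library Rn45s took 43.7% of gene reads, and the 12 Kupffer cell and macrophage markers summed to 134 CPM, against 290 and 319 CPM in the other low-iron mice, 310 to 492 CPM at sufficient iron and 265 to 336 CPM at high iron. That library also had the lowest sums of the 8 sinusoidal endothelial markers (152 CPM, against 207 to 301 CPM in the other 8 libraries) and of the 8 stellate cell and fibroblast markers (197 CPM, against 220 to 477 CPM). The 6 cholangiocyte markers summed to 28.0 to 36.6 CPM at low iron, 40.3 to 73.0 CPM at sufficient iron and 33.3 to 71.4 CPM at high iron. The part of Rn45s and of these cell types in the Ncoa4 values was not tested.

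Steap3, the endosomal ferrireductase that reduces iron released from transferrin, had its lowest levels on the high-iron diet. It stood at 16.2, 18.7 and 14.9 CPM in low-iron replicates 1, 5 and 9. Sufficient-iron replicates 2, 6 and 10 held 16.3, 14.3 and 15.3 CPM, and high-iron replicates 4, 8 and 12 held 14.2, 13.6 and 11.5 CPM. The high-iron mice lay below all others, by 0.0905 CPM at the nearest pair. The log2 difference was -0.34 ± 0.13 between high and low iron (interval -0.63 to -0.06, edgeR unadjusted p = 0.0238, adjusted p = 0.397) and -0.22 ± 0.13 between high and sufficient iron (adjusted p = 0.609). Its slope of -0.13 ± 0.05 log2 units per 10-fold more iron had the lowest trend p of the 8 genes (edgeR unadjusted p = 0.0185, adjusted p = 0.383). Without high-iron replicate 12, the lowest library and one of the 2 richest in Rn45s, the value between high and low iron was -0.26 and that between high and sufficient iron -0.14. The 8 hepatocyte markers had lower sums at high than at low iron, without overlap. The part of these markers and of Rn45s in the Steap3 values was not tested. Without low-iron replicate 5, the highest library, the value between high and low iron was -0.25.

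Steap2, a STEAP family metalloreductase, was the most variable of the tested genes of the set. It stood at 6.32, 5.74 and 7.89 CPM in low-iron replicates 1, 5 and 9 and at 8.66, 5.32 and 7.42 CPM in high-iron replicates 4, 8 and 12. Sufficient-iron replicates 2 and 10 held 8.56 and 6.82 CPM, and replicate 6 held 13 CPM, so that the groups overlapped in all comparisons. The log2 difference was -0.41 ± 0.25 between high and sufficient iron (edgeR adjusted p = 0.631) and -0.51 ± 0.26 between low and sufficient iron (adjusted p = 0.464). Without sufficient-iron replicate 6 these came to -0.11 and -0.21, and without high-iron replicate 8 the first was -0.24. In sufficient-iron replicate 6 the 8 stellate cell and fibroblast markers summed to 477 CPM, against 197 to 336 CPM in the other 8 libraries, and the 6 neutrophil and monocyte markers to 21.1 CPM, against 3.73 to 10.2 CPM. Their part in the Steap2 values was not tested. Steap2 was measured from 81 to 563 reads per library, the fewest of the tested genes. Highest over lowest library was 2.44-fold.

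Counted by overlap, 2 of the 8 genes separated high from sufficient iron (Aco1 and Steap3, both lower), against 17.8% of all tested genes (8.99% higher and 8.85% lower). Between low and sufficient iron 1 of 8 did (Ncoa4, lower; 16.6% of all genes, 8.81% higher and 7.83% lower), and between high and low iron 3 of 8 did (Aco1 and Steap3 lower, Ncoa4 higher; 15.7% of all genes, 7.59% higher and 8.15% lower). The comparisons share the same libraries. With 8 genes these counts are too small to set the genes apart from the rest.

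**Figure D2:**
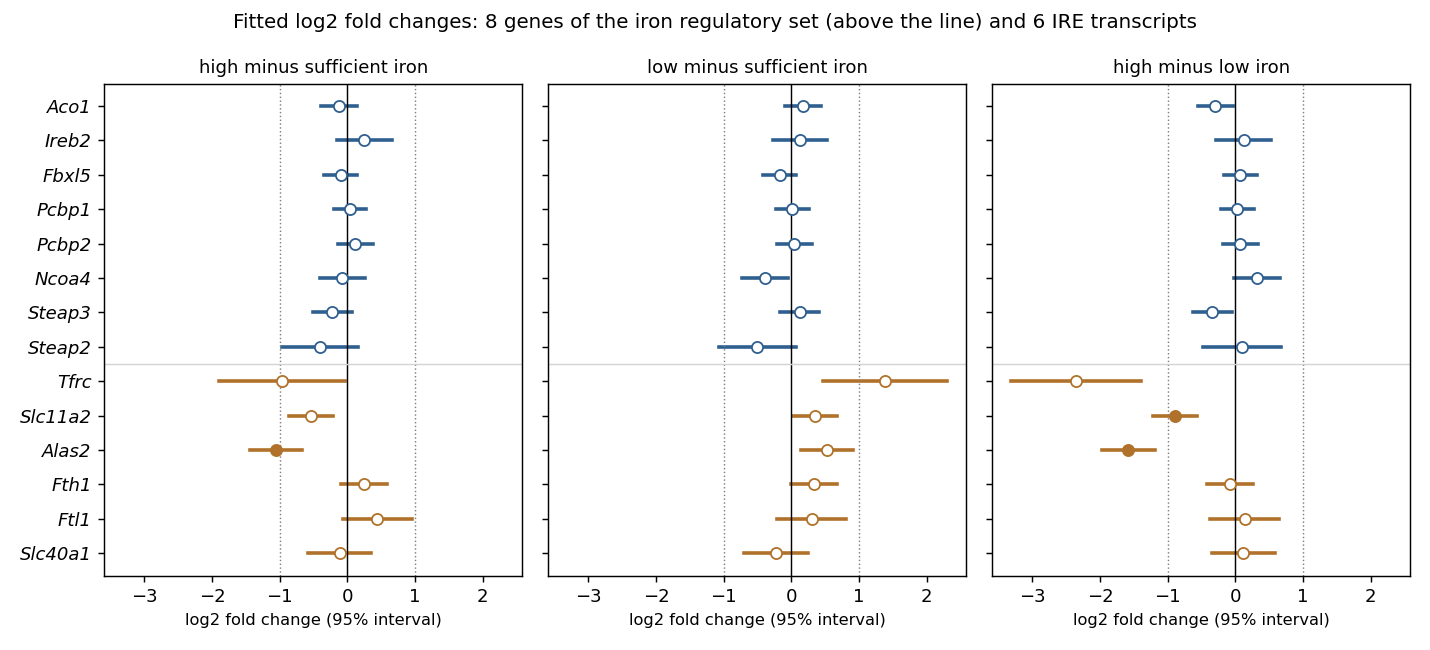
Fitted log2 fold change with its 95% interval for the 8 tested genes (above the grey line) and 6 IRE transcripts (below it) in the 3 diet comparisons. Filled points passed the test over 13020 genes, open points did not, and dotted lines mark a 2-fold difference. Filled points are Alas2 in 2 comparisons and Slc11a2 in 1.

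Ratios of paired genes within a library do not depend on how library sizes are scaled, so they were compared as well. The log2 ratio of Ireb2 to Aco1 reads was -0.64, -0.60 and -0.39 in low-iron replicates 1, 5 and 9. At sufficient iron the mice numbered 2, 6 and 10 had -0.22, -0.84 and -0.46, and at high iron those numbered 4, 8 and 12 had -0.03, -0.44 and 0.08. The high-iron mouse numbered 8 lay among the low-iron values, so the groups overlapped. The difference of means was 0.41 between high and low iron (exact permutation test, two-sided, p = 0.2, adjusted p = 0.48 over 12 ratio tests). The log2 ratio of Fbxl5 to Ireb2 was -2.20 ± 0.14 at low iron, -1.89 ± 0.28 at sufficient iron and -2.24 ± 0.16 at high iron (SD, n = 3 each; lowest exact permutation p = 0.2). Pcbp2 to Pcbp1 was 0.05 ± 0.17, 0.02 ± 0.23 and 0.10 ± 0.04 (lowest exact p = 0.6, n = 3 each). Steap3 to Steap2 was 1.33 ± 0.39, 0.75 ± 0.54 and 0.90 ± 0.40 (lowest exact p = 0.2, n = 3 each). In all 12 ratio comparisons the groups overlapped, and with 3 mice per diet the test cannot go below 0.1.

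**Figure D3:**
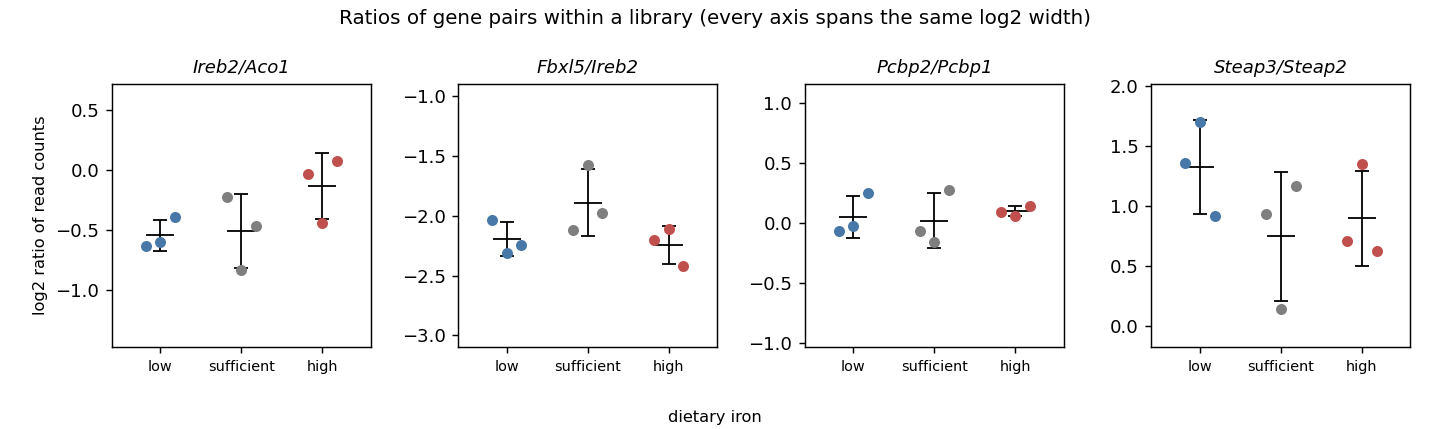
Log2 ratio of read counts of 4 gene pairs within each library, by diet. Points are mice and bars are mean and SD of 3, and every axis spans the same width. The groups overlap in each panel, and the Ireb2 to Aco1 ratio has its highest values, -0.03 and 0.08, in 2 of the 3 high-iron mice.

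The transcripts that the IRPs bind were counted in the same libraries, from a list of 9 IRE messages. Of these 9, 1 passed between high and sufficient iron (Alas2, lower; 0.115% of all genes were lower), and 0 between low and sufficient iron (edgeR). Between high and low iron 2 passed (Alas2 and Slc11a2, both lower; 0.346% of all genes were lower), and along the trend 3 did (Alas2, Slc11a2 and Tfrc, with 0.2% of all genes lower). In the joint test 1 passed (Alas2, adjusted p = 0.0221). At an unadjusted p under 0.05 there were 4 of 9 between high and sufficient iron (9.28% of all genes). Of these, Alas2, Slc11a2 and Tfrc were lower at high iron, and Epas1 was higher (log2 difference 0.35). There were 3 of 9 between low and sufficient iron (11.2%) and 3 of 9 between high and low iron (9.65%). The median log2 difference of the list was 0.04, 0.30 and -0.14 for high against sufficient, low against sufficient and high against low iron.

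Tfrc, the receptor that takes up transferrin-bound iron, stood at 47.5, 110 and 52.2 CPM in low-iron replicates 1, 5 and 9. It stood at 36.9, 30.8 and 12.8 CPM in sufficient-iron replicates 2, 6 and 10 and at 18.2, 10.7 and 12.1 CPM in high-iron replicates 4, 8 and 12. Low-iron mice lay above all others, and sufficient-iron replicate 10 lay among the high-iron mice. Tfrc fell by 0.90 ± 0.16 on the log2 scale per 10-fold more iron (edgeR adjusted p = 0.0484). That call was lost (adjusted p from 0.0701 to 0.205) without sufficient-iron replicate 2 or any 1 of the low-iron replicates 1, 5 and 9 and high-iron replicates 4, 8 and 12. It held in only 2 of 10 alternatives of processing (DESeq2 size factors and the DESeq2 test), with an adjusted p of 0.0505 to 0.214 in the other 8.

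Slc11a2, the importer that passes iron out of the endosome after STEAP reduction, stood at 34.2, 40 and 32 CPM in low-iron replicates 1, 5 and 9. It stood at 28.4, 30.4 and 24.6 CPM at sufficient iron (replicates 2, 6 and 10) and at 22.4, 18.9 and 15.9 CPM at high iron (replicates 4, 8 and 12). None of the 3 groups overlapped. It fell by 0.89 ± 0.15 on the log2 scale between high and low iron (edgeR adjusted p = 0.0328) and by 0.34 ± 0.06 per 10-fold more iron (adjusted p = 0.0348). The first call was lost without high-iron replicates 4 (adjusted p = 0.0719), 8 (0.15) or 12 (0.127) and without low-iron replicates 5 (0.113) or 9 (0.0804). The trend call was lost without those 5 libraries (0.0984 to 0.165) and without sufficient-iron replicates 2 (0.0559) or 10 (0.0618). Both were also lost with low-iron replicate 1 and high-iron replicate 12 left out together (0.0928 between high and low iron, 0.118 for the trend). Reads of the Slc11a2 isoforms with and without an IRE are summed in these counts.

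Alas2, the first enzyme of haem synthesis in red-cell precursors, measured 86.9, 126 and 93.7 CPM on the low-iron diet (replicates 1, 5 and 9). Replicates 2, 6 and 10 on sufficient iron had 81.5, 62.3 and 69.1 CPM, and replicates 4, 8 and 12 on high iron had 38.4, 35.8 and 28.1 CPM. None of the 3 groups overlapped. It fell by 1.58 ± 0.18 on the log2 scale between high and low iron (edgeR adjusted p = 0.0113), a call lost without high-iron replicate 4 (0.0565) or 8 (0.076). Between high and sufficient iron it fell by 1.06 ± 0.17 (adjusted p = 0.0479), a call lost without any 1 of 7 libraries (0.0686 to 0.228): low-iron replicate 9, sufficient-iron replicates 2, 6 and 10 and high-iron replicates 4, 8 and 12. It was also lost with Rn45s and Lars2 left out of the counts (0.0546) and with low-iron replicate 1 and high-iron replicate 12 left out together (0.0857). The trend was -0.61 ± 0.07 (adjusted p = 0.0107), lost without high-iron replicates 4 (0.0577), 8 (0.0675) or 12 (0.0605). The other 7 red-cell markers, globins among them, summed to 3 to 14 reads per library. Of the 8 markers, 4 had no read in any library. Reads that align to several places are not in these counts, so any that globin genes share with each other would be missing. These sums therefore do not measure how much red-cell RNA the livers held. The part of red-cell precursors in the Alas2 result was not tested.

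The ferritin genes and ferroportin, whose IRE is in the 5′ UTR, did not pass. Fth1 stood at 1292 to 1730 CPM at low iron, 1059 to 1274 CPM at sufficient iron and 1201 to 1583 CPM at high iron (edgeR joint adjusted p = 0.532). Low-iron mice lay above sufficient-iron mice without overlap (log2 difference 0.33, edgeR adjusted p = 0.45), as for 8.81% of all tested genes. Both ferritin genes have near-identical copies, and reads shared with those are not in the counts. Ftl1 ranged from 2276 to 4161 CPM over all mice (joint adjusted p = 0.575) and Slc40a1 from 89.3 to 160 CPM (0.79). The highest Fth1 and Ftl1 levels were in low-iron replicate 1, rich in Rn45s. The next highest, 1583 and 4060 CPM, were in high-iron replicate 8. The part of Rn45s in the ferritin values was not tested. Of the remaining listed transcripts, Epas1, encoding the hypoxia factor HIF-2 alpha, had a joint adjusted p of 0.503.

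**Figure D4:**
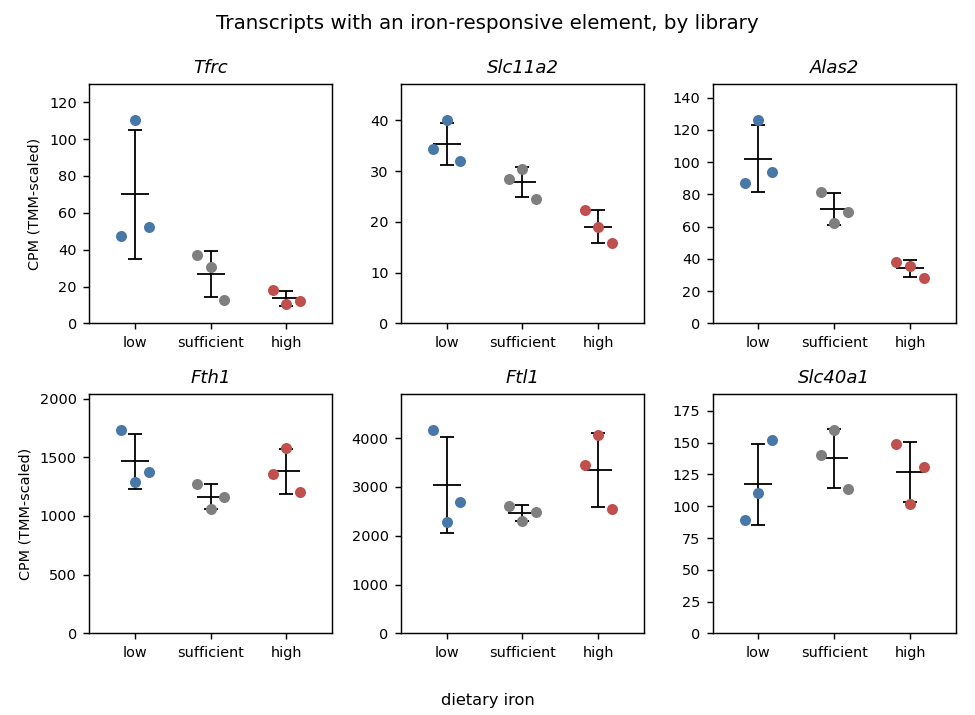
Level of 6 IRE transcripts in each library by diet, in CPM on TMM-scaled library sizes, with axes starting at 0. Points are mice and bars are mean and SD of 3. The upper row (Tfrc, Slc11a2, Alas2) steps down from low to high iron, and in the lower row (Fth1, Ftl1, Slc40a1) the low-iron and high-iron mice overlap.

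Partners of the set were counted by list. None of the 5 tested ubiquitin ligase partners of FBXL5 passed in any of the 5 tests, Skp1a (joint adjusted p = 0.491), Nedd8 (0.499) and Cul1 (0.516) having the lowest joint p. Iron-sulfur assembly supplies the cluster of IRP1, and its list here joins cytosolic genes with Iscu and Nfs1 of the mitochondrial machinery. None of the 13 genes passed either. Their log2 differences were positive for 13 of 13 genes between high and sufficient iron (median 0.12) and for 12 of 13 between low and sufficient iron (median 0.14), comparisons that share the sufficient-iron mice, while the median between high and low iron was -0.02. Over all tested genes 48.1% and 49.4% were positive in those 2 comparisons. Low-iron replicate 1, rich in Rn45s, held the highest level of 7 of the 13 genes. Iscu stood at 125 CPM there and at 53.3 to 83.6 CPM in the other 8 libraries. Without that library 13 of 13 and 10 of 13 were positive, and the median between high and low iron was 0.04. The scaffold gene Iscu had the lowest joint p (edgeR adjusted p = 0.456), followed by Fam96b (0.499) and Glrx3 (0.506). Among the other poly(rC)-binding proteins, Pcbp4, Hnrnpk and Pcbp3 had joint adjusted p-values of 0.536, 0.682 and 0.704.

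Of 20 autophagosome and ferritinophagy genes 0 passed in any of the 5 tests, with median log2 differences of -0.02, 0.10 and -0.12 in the order high against sufficient, low against sufficient and high against low iron. Map1lc3a, encoding a lipidated protein of the autophagosome membrane, had the lowest joint p (edgeR adjusted p = 0.417). Its means were 30.2 ± 4.89, 23.4 ± 0.192 and 31.3 ± 4.71 CPM at low, sufficient and high iron, the sufficient-iron mice lying below the rest. Atg7 (0.499) and the cargo receptor gene Sqstm1 (0.499) came next. Map1lc3a, Atg7 and Sqstm1 had their highest levels, 35.9, 52.7 and 473 CPM, in low-iron replicate 1, rich in Rn45s. Elsewhere they reached at most 35.4, 43.0 and 410 CPM, and the part of Rn45s in these values was not tested. Of the other reductases, 6 of 7 could be tested and 0 passed. Steap4, another STEAP metalloreductase, had means of 71.2 ± 18.5, 104 ± 26.1 and 74.6 ± 16.2 CPM (joint adjusted p = 0.492), and Steap1 had 0 to 5 reads per library. Cyb561 and Frrs1 had joint adjusted p-values of 0.559 and 0.555. Of 9 endosomal uptake partners, 1 passed between high and low iron (Slc11a2, where 0.507% of all genes passed). Along the trend 2 passed (Slc11a2 and Tfrc, where 0.307% of all genes passed), with the limits given above for both. In the other tests 0 passed. Tfr2, the hepatocyte transferrin sensor, had a joint adjusted p of 0.443.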

How the data were processed

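The authors deposited one table per library with the raw count of reads for each gene symbol, with 5 category entries at the end of each, which were left out. Per those entries, reads aligned to several places or overlapping several genes are not in the gene counts. FastQC and 2 builds, mm10 and mm9, are listed in the submitters' processing notes with no role. Aligner, counter and strandedness: not given in the sources used here. Unique reads outside genes made up 13.4% to 25.9%.

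The tests ran in edgeR 4.0.16 under R 4.3.3 (filterByExpr, leaving 13020 genes; TMM scaling; robust quasi-likelihood F-tests with a diet term and no other covariate, fitted to the 9 libraries together; a second fit on log10 dietary iron). Adjustment of p-values (Benjamini-Hochberg) covered every tested gene. Intervals are 95% intervals of the fitted log2 fold change. CPM use TMM-scaled library sizes. Alternatives used DESeq2 1.42.0, limma 3.58.1, other scalings and filters, and libraries left out. Leaving out low-iron replicate 1 and high-iron replicate 12 together was chosen after seeing the data. The members, lists and tests were chosen with earlier results of these data known. The text names all 9 genes of the set. From each partner list it names each gene past the test and otherwise the up to 3 with the lowest joint p. Fth1, Ftl1, Slc40a1, Epas1 and Tfr2 fall outside that rule and were named after their values were seen. Protein comparisons of gene pairs, planned at first, were not made.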

Additional observations from a re-analysis of the deposited data

How the results depend on the processing

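No gene of the set passed in any of the 5 tests under any alternative, with 20 alternatives for each pairwise comparison and 19 for the trend and for the joint test. The lowest adjusted p of a member was 0.0831, for Aco1 between high and low iron in limma-voom with sample quality weights (0.0831 to 0.723 over its alternatives). Over all genes, DESeq2 called 215 in place of 28 (high against sufficient), 105 in place of 0 (low against sufficient), 365 in place of 66 (high against low), 413 in place of 28 (joint) and 313 in place of 40 (trend). With 1 library left out these counts ran from 0 to 56, 0 to 1, 0 to 112, 0 to 68 and 0 to 96. Of 24 pairwise log2 differences, 15 kept their sign under every alternative, as did 4 of 8 slopes. The largest difference that changed sign was 0.12 in the main fit, for Ireb2 between high and low iron. The cause of each change was not tested. With low-iron replicate 1 and sufficient-iron replicate 6 both left out, Ireb2 between high and low iron was -0.00499 and Ncoa4 between high and sufficient iron 0.00443. With low-iron replicate 1 and high-iron replicate 12 both left out, the values between high and low iron were -0.137 for Ireb2 and -0.0213 for Fbxl5, and the slopes were -0.0470 for Ireb2, -0.0124 for Fbxl5 and -0.00678 for Steap2. Pcbp1 between low and sufficient iron was -0.00424 with upper-quartile scaling, -0.00455 with the filter at 1 CPM in 3 libraries and -0.0105 in limma-voom with quality weights. In that last fit Pcbp2 between high and low iron was -0.00524 and Ncoa4 between high and sufficient iron 0.00464. Leaving out 1 library at a time, Pcbp1 ran from -0.0488 to 0.0866 (high against sufficient), -0.0423 to 0.0497 (low against sufficient) and -0.0501 to 0.0837 (high against low). Pcbp2 (low against sufficient) ran from -0.0281 to 0.121, Ncoa4 (high against sufficient) from -0.161 to 0.00404 and Steap2 (high against low) from -0.0767 to 0.278. Slopes ran from -0.00289 to 0.0927 for Ireb2, -0.000838 to 0.0615 for Fbxl5, -0.0186 to 0.0309 for Pcbp1 and -0.0459 to 0.118 for Steap2. The number of ratio comparisons without overlap, 0 of 12, was 4 without high-iron replicate 8 or low-iron replicate 9, 3 without sufficient-iron replicate 2, 1 without low-iron replicate 1 or sufficient-iron replicate 10, 0 without each other library, and 0 with 1 read added to both genes. No paired analysis was made, because the labels name no pairing or block of mice across diets. Depth limits Cybrd1, at 1 to 11 reads per library.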

Other observations

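For the 3 genes with the lowest joint p, the genes with the most similar profile over the 9 libraries were looked up among 8791 genes whose mean level was 5 CPM or more. Likeness is the root mean square difference of log2 CPM, each gene centred on its own mean, and libraries share depth and scaling, so it is a description. The genes named were picked as the closest, so they lie below the median by selection, and the median is given only as a scale. Closest to Ncoa4 were Dennd5a (0.05) and Ubr1 (0.0644), against a median of 0.304 over all genes compared. Ubr1, an N-recognin ubiquitin ligase, stood at 13.6 CPM in low-iron replicate 1, its lowest library, and at 20.1 to 25.8 CPM in the other 8. Closest to Steap3 were Ccnh (0.0429) and Ntn3 (0.0623; median 0.251), and Ccnh, encoding cyclin H, had its lowest level, 11 CPM, in high-iron replicate 12, as Steap3 did. Closest to Aco1 were Cyp3a13 (0.0471), a cytochrome P450, and Lap3 (0.0547), a leucine aminopeptidase (median 0.235). Cyp3a13 stood at 104 and 101 CPM in low-iron replicates 5 and 9, the libraries with the highest Aco1 levels, and at 79 to 92.4 CPM in the other 7.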
